A study of Mus musculus with 9 samples.

Results

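The comparison of colons from mice given royal jelly acid during dextran sulfate sodium (DSS) exposure with colons from mice given DSS alone was made on 6 small RNA libraries, 3 of each group, out of the 9 in the series. The miRNAs compared were the 422 rows with a mouse miRNA name that had at least 10 reads in 3 or more of these 6 libraries, out of 1126 such rows in a table of 1155 rows. Of the 422, 345 had at least 10 reads in all 6 libraries, 3 passed through the DSS_RJA libraries alone and 3 through the DSS libraries alone. At the edge of the filter, 8 miRNAs reached exactly 10 reads in the last of the 3 libraries needed and were kept, and 12 reached 9 and were not.

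All mice were wild-type C57BL/6J. The DSS_RJA group drank water with 2.5% DSS, ate a normal diet and received royal jelly acid (RJA) once a day by gavage, at 10 mg/kg in 0.2 mL. The DSS group drank the same 2.5% DSS with a normal diet, and no gavage is recorded for it, so RJA and the gavage itself cannot be told apart. DSS, a sulfated sugar polymer, damages the epithelium of the colon and serves as a model of colitis, and royal jelly acid is a fatty acid from the royal jelly of honey bees. The labels give no age, sex or length of exposure, and do not tie a colon sample to an animal. The p-values therefore measure only the spread between these samples, which may be technical. The 3 Control libraries of the series, from mice on normal diet and water, did not enter the comparison.

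A microRNA (miRNA) is a short RNA that guides a silencing complex to messenger RNAs. It pairs with them mainly through its seed, the bases near its 5′ end, and lowers their stability and translation. Each hairpin precursor can give a 5p and a 3p arm, of which one is often far more abundant. In the colon wall, different cells carry different miRNAs. The miR-200 family and the miR-192, miR-194 and miR-215 group mark epithelium, miR-143 and miR-145 mark smooth muscle, and miR-150 and miR-223 mark lymphocytes and neutrophils. In a piece of tissue, fewer cells of a type and less miRNA per cell cannot be told apart.

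Sequences are shown for some of the miRNAs with small p-values in each direction and for families that share a seed, since the seed sets which messages a miRNA can bind. They come from RefSeq (GRCm38.p6), read 5′ to 3′, with the seed (bases 2 to 8) in capitals, and 355 of the 422 miRNAs had a sequence there. First come miRNAs that were higher in every DSS_RJA library, with the second 3p arm of the miR-194 precursors for comparison.
miR-194-1-3p: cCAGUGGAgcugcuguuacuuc
miR-194-2-3p: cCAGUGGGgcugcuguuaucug
miR-148a-5p: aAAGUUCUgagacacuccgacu
miR-1983: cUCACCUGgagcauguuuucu
miR-18a-5p: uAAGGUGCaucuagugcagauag
miR-106b-5p: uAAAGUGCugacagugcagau
The 3p arms of the 2 miR-194 precursors matched at 18 of 22 positions and had different seeds, so the 2 can be told apart by sequence. The seeds of miR-18a-5p and miR-106b-5p, from related clusters, were also not the same. miR-194-1-3p lay at chr1:185313360-185313381 on the plus strand, within an intron of the noncoding gene 2010103J01Rik and, on the opposite strand, of Iars2, and miR-148a-5p at chr6:51269867-51269888 on the minus strand, outside other genes. miR-1983 lay at chr13:21896930-21896950 on the minus strand, outside other genes, and miR-18a-5p at chr14:115043867-115043889 on the plus strand, in an exon of the host transcript Mir17hg. miR-106b-5p lay at chr5:138165787-138165807 on the minus strand, in an intron of Mcm7, which encodes a subunit of the replicative helicase. The gene annotation is GENCODE M21, and genes that it does not hold were not looked for.

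Next are the hypoxia miRNA miR-210-3p and 5 arms of the miR-200 family, which fall into one group of 3 and one pair by seed.
miR-210-3p: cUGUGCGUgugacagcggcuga
miR-200b-3p: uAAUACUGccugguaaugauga
miR-200c-3p: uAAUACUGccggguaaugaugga
miR-429-3p: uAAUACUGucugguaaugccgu
miR-200a-3p: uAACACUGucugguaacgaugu
miR-141-3p: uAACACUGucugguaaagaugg
Last are miRNAs that were lower on average in DSS_RJA, with the pair of miR-132 and miR-212, which share a seed.
miR-129-5p: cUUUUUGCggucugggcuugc
miR-129b-3p: cAAGCCCAgaccgcaaaaagauu
miR-129-2-3p: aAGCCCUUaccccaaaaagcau
miR-132-3p: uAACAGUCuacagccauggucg
miR-212-3p: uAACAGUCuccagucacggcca
miR-146a-5p: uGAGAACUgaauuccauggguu
let-7e-5p: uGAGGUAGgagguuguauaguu
miR-129-5p and miR-129b-3p are reverse complements of each other over 20 bases, and at the miR-129-2 locus on chromosome 2 they lie on opposite strands. Their counts never differed by more than 0.656% in a library, so they are not separate measurements, though both rows stay in the counts given below. Of the 422, 15 pairs of rows had counts within 5% of each other in every library. In all 8 pairs for which both sequences were at hand, the mature sequences were reverse complements.

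Libraries within both groups were unlike each other, and this touches every value below. Library totals were 5985153, 6167263 and 6164500 reads in DSS_RJA 1, 2 and 3, against 7330731, 6453813 and 7568298 in DSS 1, 2 and 3, so the groups did not overlap in depth. The factors that scale the libraries to each other (trimmed mean of M-values, TMM), 0.887, 0.975 and 0.974 in DSS_RJA against 1.05, 1.06 and 1.06 in DSS, did not overlap either. Principal component 1 took up 53.3% of the variance, and on it DSS_RJA 1 and DSS_RJA 2 lay at -14.6 and -7.84 and DSS_RJA 3 at 5.69, while DSS 1, DSS 2 and DSS 3 lay at 11.5, -0.043 and 5.30. DSS_RJA 3 thus stood among the DSS libraries. On principal component 2, with 15.9% of the variance, DSS 3 stood apart at -10.2, against -0.21 to 3.55 for the other 5 libraries. Of the 422 miRNAs, 78 were above every DSS library in both DSS_RJA 1 and DSS_RJA 2, and DSS_RJA 3 joined them in 25. Another 81 were below every DSS library in both, and DSS_RJA 3 joined them in 36.

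No miRNA passed the test between DSS_RJA and DSS. Of the 422, 0 were higher and 0 were lower at an adjusted p under 0.05 (edgeR quasi-likelihood test on the 6 libraries, Benjamini-Hochberg adjustment), which is 0% called, and the smallest adjusted p was 0.216, shared by 4 miRNAs. An unadjusted p under 0.05 was found for 47 miRNAs (11.1%), of which 31 were higher (7.35%) and 16 lower (3.79%), where 21.1 would be expected on average if no miRNA differed. limma-voom also called 0. DESeq2 called 4, all of them higher, namely miR-194-1-3p, miR-148a-5p, miR-200c-5p and miR-1983. Of these, miR-200c-5p entered the test only through its reads in DSS_RJA, where it is high. With no filter on low counts edgeR called 30 higher and 2 lower among 1059 miRNAs. In that fit the prior degrees of freedom, which set how far each miRNA's own spread is replaced by the common trend, were infinite, against 3.79 with the filter. Without DSS_RJA 3 the unadjusted counts were 48 higher and 30 lower, with the smallest adjusted p at 0.0645 (edgeR), and without DSS_RJA 1 they were 11 and 5. They were 12 and 6 without DSS_RJA 2, 16 and 7 without DSS 1, 36 and 7 without DSS 2, and 19 and 16 without DSS 3. With 1 row kept of each near-identical set, a fit of 408 miRNAs chosen after the data were seen, they were 31 and 11.

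The median log2 fold change (DSS_RJA over DSS) over the 422 was 0.0020, with 212 positive (50.2%) and 210 negative (49.8%) values. It ranged from -1.24 to 3.84. In 25 miRNAs (5.92%) the lowest DSS_RJA library exceeded the highest DSS library, and in 36 (8.53%) the highest DSS_RJA library was under the lowest DSS library. The 422 include 3 miRNAs that met the read filter through DSS_RJA alone and 3 through DSS alone, and the filter favours separation in these. Levels are given as CPM, counts relative to library size after TMM scaling. Scaling by library totals alone shifted the median log2 fold change to -0.17. It changed the split at an unadjusted p under 0.05 to 19 higher and 37 lower, and the groups that did not overlap to 16 above and 66 below.

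**Figure D1:**
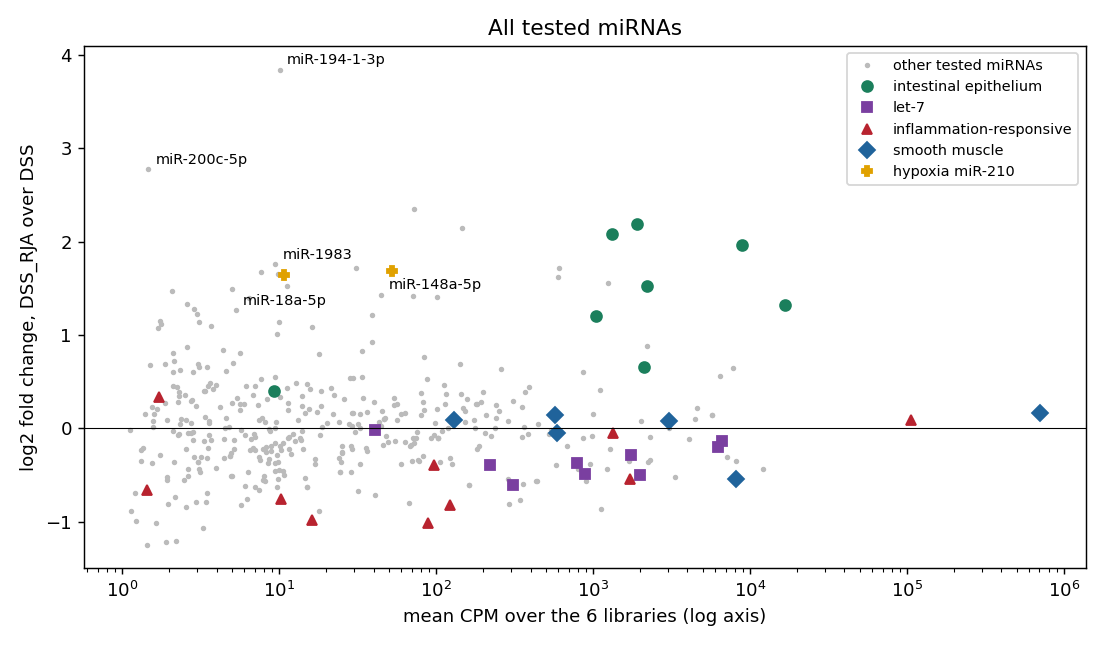
log2 fold change (DSS_RJA over DSS, vertical axis) against mean CPM over the 6 libraries (horizontal log axis) for the 422 miRNAs, one point each, with 5 miRNA lists in colour. The intestinal epithelium list and both arms of miR-210 sit above 0 and the let-7 list sits below 0, and miR-194-1-3p has the highest value of all, at 3.84.

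The highest fold change was that of miR-194-1-3p, a minor arm from one precursor of miR-194, a miRNA of differentiated intestinal epithelium. Its level was 25.1, 24.1 and 7.33 CPM in DSS_RJA 1, 2 and 3, against 0.259, 2.04 and 1.62 CPM in DSS 1, 2 and 3. Every DSS_RJA library was higher than every DSS library, and DSS_RJA 3 was the lowest of its group. They rest on few reads, 133, 145 and 44 in DSS_RJA and 2, 14 and 13 in DSS, and such low counts leave the size of the change uncertain. The log2 fold change was 3.84 ± 0.70 (standard error; edgeR adjusted p = 0.216). It passed with DESeq2, without a filter, with all 9 libraries in the fit and with the epithelial level as a covariate, and its adjusted p over 18 alternatives ran between 1.01e-14 and 0.744. miR-200c-5p, the minor arm of the miR-200c precursor, had 3.01, 2.33 and 2.33 CPM in DSS_RJA and 0.389, 0.583 and 0.125 CPM in DSS (2.77 ± 0.56). Its read counts were 16, 14 and 14 in DSS_RJA and 3, 4 and 1 in DSS. It is one of the 3 miRNAs that met the read filter through DSS_RJA alone, and without any one DSS_RJA library it was not tested, so it had to be high in DSS_RJA to be among the 422.

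Several scarce and mid-level miRNAs had a narrower separation of the groups. miR-148a-5p, the minor arm of miR-148a, was at 90.0, 58.7 and 47.1 CPM in DSS_RJA, against 19.4, 30.4 and 22.7 CPM in DSS, with a log2 fold change of 1.43 ± 0.32 (edgeR adjusted p = 0.216). The lowest DSS_RJA library was higher than the highest DSS library. Its abundant arm, miR-148a-3p, was at 12900.2, 5186 and 5142 CPM in DSS_RJA and 6818, 6001 and 2924 CPM in DSS, and here the groups overlapped (0.56 ± 0.45). Only DSS_RJA 1 lay above the DSS range for this arm, and without that library the log2 fold change was -0.0056. miR-1983 was at 8.85, 15.8 and 19.0 CPM in DSS_RJA and 3.37, 6.84 and 2.74 CPM in DSS (1.76 ± 0.44, edgeR adjusted p = 0.330). Unlike the epithelial arms, it was highest in DSS_RJA 3 and lowest in DSS_RJA 1 within its group. miR-3081-3p, whose precursor lies in an intron of Boc, was at 15.6, 13.1 and 10.3 CPM in DSS_RJA and 6.35, 6.84 and 6.10 CPM in DSS (1.02 ± 0.26).

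More abundant was miR-151-3p, at 1188, 1097 and 849 CPM in DSS_RJA, against 694, 683 and 693 CPM in DSS. The 3 DSS libraries were almost level, within 1.02-fold of each other, and all lay under the DSS_RJA libraries (0.60 ± 0.21, edgeR adjusted p = 0.428). miR-582-3p, from an intron of Pde4d, which encodes a cyclic AMP phosphodiesterase, was at 53.9, 43.1 and 33.3 CPM in DSS_RJA and 27.1, 30.0 and 16.4 CPM in DSS (0.82 ± 0.31). Its groups also did not overlap. miR-345-5p was at 31.1, 22.3 and 12.8 CPM in DSS_RJA and 8.43, 8.59 and 13.9 CPM in DSS (1.09 ± 0.38), and DSS_RJA 3 fell within the DSS range.

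**Figure D2:**
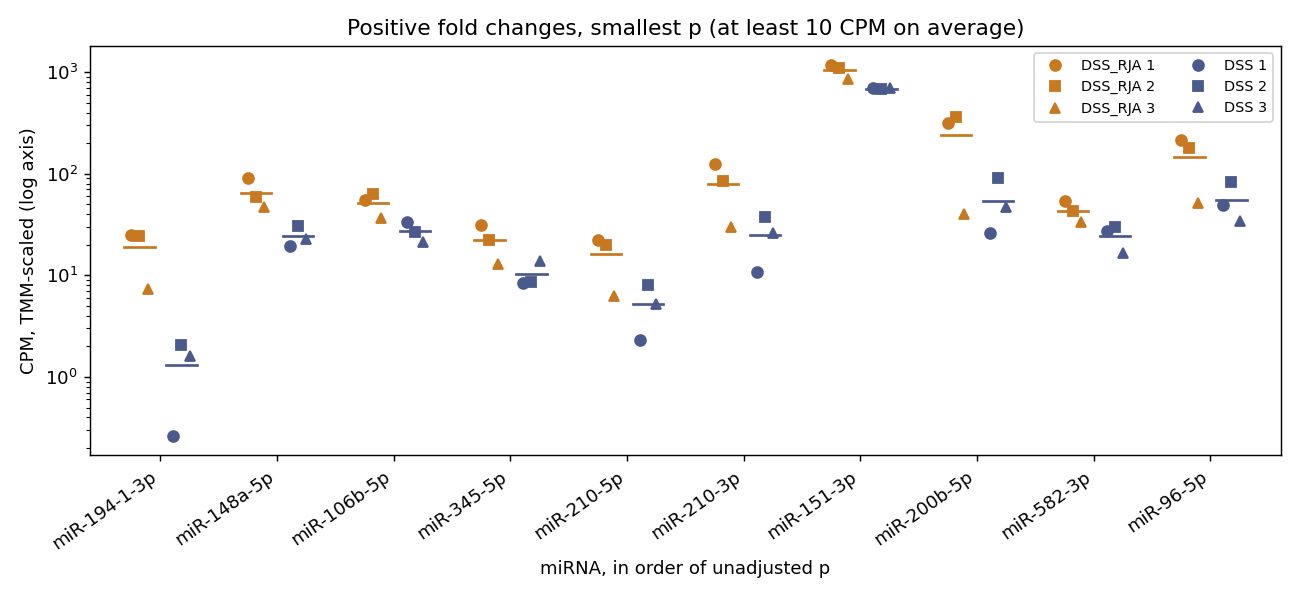
CPM (TMM-scaled, log axis) of the 10 miRNAs with positive fold changes and the smallest p among those with a mean of at least 10 CPM, with one marker per library (DSS_RJA left, DSS right of each name) and a line at the group mean. miR-194-1-3p, miR-148a-5p, miR-106b-5p, miR-151-3p and miR-582-3p have groups that do not overlap, and in the other 5 DSS_RJA 3 lies within the DSS range.

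All 8 miRNAs of the intestinal epithelium list had positive fold changes and 0 passed. The list holds the guide arms of miR-192, miR-194 and miR-215 and of the miR-200 family, which keeps cells epithelial by repressing Zeb1 and Zeb2. Their median log2 fold change was 1.42, against 0.0020 over all miRNAs tested, and in 0 of the 8 did the groups separate, where 5.92% of all miRNAs lay above. miR-200b-3p, the most abundant of its family, was at 22147, 17252 and 2879 CPM in DSS_RJA, against 1416, 7195 and 2194 CPM in DSS. DSS_RJA 1 and DSS_RJA 2 were higher than any DSS library, and DSS_RJA 3 was lower than DSS 2. The log2 fold change was 1.97 ± 0.82 (edgeR adjusted p = 0.433). miR-429-3p, which shares its seed and its cluster on chromosome 4, had 3503, 2482 and 413 CPM in DSS_RJA and 207, 964 and 339 CPM in DSS (2.08 ± 0.81). miR-200b-5p, the other arm of the miR-200b precursor, had 315, 364 and 40.3 CPM in DSS_RJA and 26.1, 90.0 and 46.9 CPM in DSS (2.14 ± 0.78). In all 3 of these DSS_RJA 1 and DSS_RJA 2 were the 2 highest libraries and DSS 2 came next.

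The miR-192, miR-194 and miR-215 group, which is transcribed under hepatocyte nuclear factors, was also highest in DSS_RJA 1. miR-192-5p, ranked 3 by abundance, was at 46647, 20826 and 4781 CPM in DSS_RJA and 3889, 19153 and 5851 CPM in DSS (1.32 ± 0.83). miR-194-5p was at 5556, 3727 and 509 CPM in DSS_RJA and 522, 2154 and 733 CPM in DSS (1.52 ± 0.83). miR-215-5p was at 6884, 1982 and 508 CPM in DSS_RJA and 185, 1499 and 377 CPM in DSS (2.19 ± 1.03). In each of them DSS_RJA 1 was the highest of the 6 libraries, and DSS 2 was the highest DSS library. Without DSS_RJA 1 the log2 fold change of miR-192-5p was 0.44 and that of miR-215-5p 0.89, and without DSS 2 they were 2.35 and 3.52. miR-200a-3p had 4662, 2665 and 386 CPM in DSS_RJA and 841, 2913 and 1146 CPM in DSS (0.65 ± 0.80), and its log2 fold change was -0.066 without DSS_RJA 1.

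Averaged over the 8 miRNAs, the epithelial log2 CPM was 11.8, 10.96 and 8.66 in DSS_RJA 1, 2 and 3, against 8.38, 10.5 and 8.89 in DSS 1, 2 and 3. DSS_RJA 3 was below DSS 2 and DSS 3 and above DSS 1, and the groups overlapped. With this level as a covariate in the fit, miR-194-1-3p was the only miRNA called, at 3.01 ± 0.46 (edgeR adjusted p = 0.0096, with 1.01e-14 to 0.744 over all its alternatives). The covariate includes miR-194-5p, the other arm of the same precursor. In this fit the prior degrees of freedom were 9.43, against 3.79 without the covariate. The 5 miRNAs of the second epithelial list, which are the miR-183, miR-96 and miR-182 cluster, miR-203-3p of stratified epithelium and miR-205-5p, were all positive too, with a median of 1.56 and 0 called. miR-182-5p was at 2888, 2229 and 449.05 CPM in DSS_RJA and 440.5, 1034 and 411 CPM in DSS (1.56 ± 0.66). miR-183-5p (1.62 ± 0.66) and miR-96-5p (1.40 ± 0.54) of the same cluster had similar values.

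**Figure D3:**
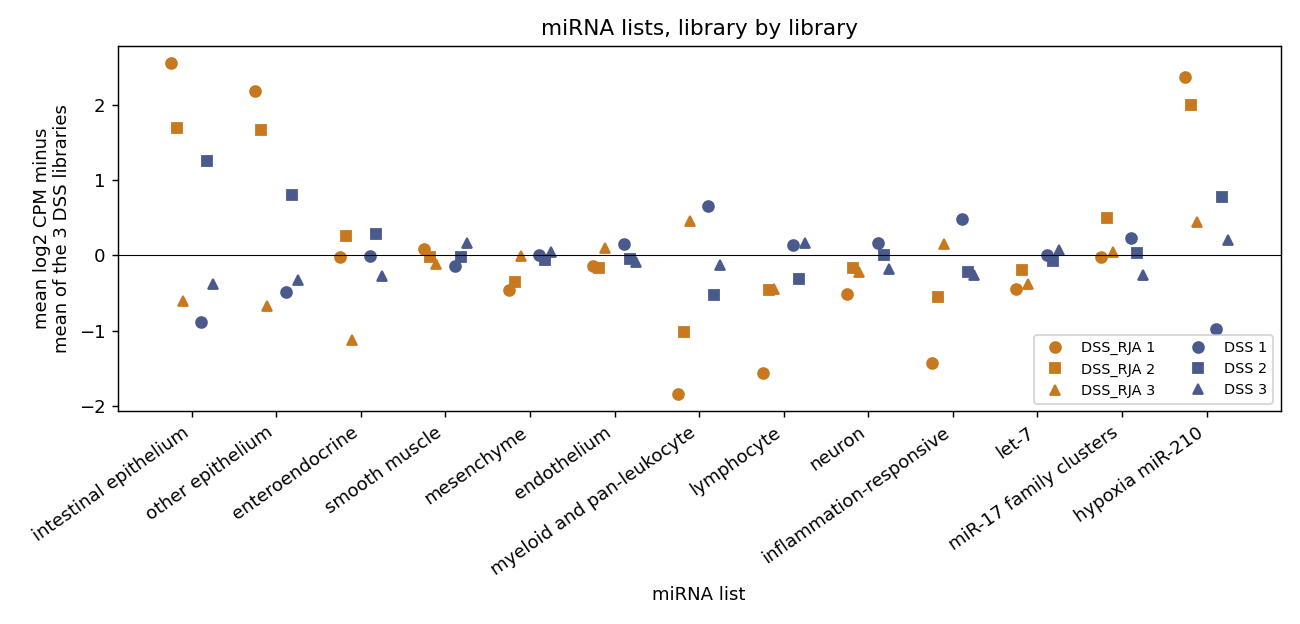
Mean log2 CPM of each miRNA list in each library, less the mean of the 3 DSS libraries (vertical axis), for 13 lists, with DSS_RJA left and DSS right of each list name. In the intestinal epithelium list DSS_RJA 1 and DSS_RJA 2 lie above the DSS libraries and DSS_RJA 3 among them, while in the let-7 list all 3 DSS_RJA libraries lie below.

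Endocrine cells of the gut lining gave a mixed picture. miR-375-3p, abundant in enteroendocrine cells, was at 4490.3, 3847 and 295 CPM in DSS_RJA and 901, 2072 and 1722 CPM in DSS (0.88 ± 0.81). Its DSS_RJA libraries spread 15.2-fold, the widest of the miRNAs with a mean of at least 100 CPM. miR-7b-5p, a miRNA of neurons and endocrine cells, was at 249, 311 and 196 CPM in DSS_RJA and 486, 493 and 311 CPM in DSS, with all DSS_RJA libraries under all DSS libraries (-0.77 ± 0.28, edgeR adjusted p = 0.428). The closest pair across the groups differed by under 1 CPM.

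miR-210-3p, which the series title names, is the main miRNA induced by hypoxia-inducible factors. Its level was 124.9, 84.8 and 29.8 CPM in DSS_RJA 1, 2 and 3, against 10.8, 37.7 and 26.2 CPM in DSS 1, 2 and 3. DSS_RJA 1 and DSS_RJA 2 were above every DSS library and DSS_RJA 3 was below DSS 2, the same arrangement as for miR-200b-3p. With 3 libraries each, DSS_RJA averaged 79.8 ± 47.7 CPM and DSS 24.9 ± 13.5 CPM (± SD). The fitted difference, 1.68 ± 0.60 on the log2 scale, was not called (edgeR adjusted p = 0.428). miR-210-5p, the other arm, was at 22.4, 19.8 and 6.33 CPM in DSS_RJA and 2.33, 8.01 and 5.23 CPM in DSS (1.64 ± 0.57). Across 18 alternatives the value for miR-210-3p ran from 0.77, with the epithelial level as a covariate, to 2.16, without DSS 2. In the covariate fit its edgeR adjusted p was 0.455, and miR-210-5p was at 0.81. miR-210-3p passed only in the fit without a filter.

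The miR-17 family clusters promote proliferation and are driven by Myc and E2F factors. The 10 members tested had 5 positive and 5 negative values (median 0.10), and 0 passed. miR-18a-5p was at 6.97, 8.48 and 6.996 CPM in DSS_RJA, against 3.24, 3.20 and 2.86 CPM in DSS. The libraries within each group were close and the groups did not overlap (1.27 ± 0.27, edgeR adjusted p = 0.216). Read counts were 37, 51 and 42 in DSS_RJA and 25, 22 and 23 in DSS. miR-106b-5p was at 55.8, 62.5 and 36.5 CPM in DSS_RJA and 33.3, 26.5 and 21.4 CPM in DSS, again without overlap (0.93 ± 0.29). miR-17-5p, from the same transcript as miR-18a-5p, was at 51.2, 40.6 and 41.0 CPM in DSS_RJA and 40.7, 40.3 and 28.3 CPM in DSS, and the groups overlapped (0.28 ± 0.24). With library totals only, the median of the clusters was -0.07.

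The let-7 family, which restrains growth genes in differentiated cells, had negative fold changes in all 9 members tested, with a median of -0.37 and 0 called. Leaving miR-143-3p out of the table made 8 of the 9 negative. In 5 of the 9 all DSS_RJA libraries lay below all DSS libraries, beside 8.53% of all miRNAs, and the 9 share one seed. Reads can be hard to assign among let-7 sequences that differ at few bases, so the members may not be independent measurements. let-7e-5p was at 193, 258 and 289 CPM in DSS_RJA and 377, 334 and 413 CPM in DSS (-0.60 ± 0.23, edgeR adjusted p = 0.433). let-7a-5p was at 661, 831 and 738 CPM in DSS_RJA and 912, 1012 and 1206 CPM in DSS (-0.49 ± 0.22). In both, DSS_RJA 3 was on the same side as DSS_RJA 1 and DSS_RJA 2.

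Of the 8 neuronal miRNAs tested, 3 were lower in every DSS_RJA library than in any DSS library, beside 8.53% of all miRNAs, and these were miR-9-5p and the arms miR-129-5p and miR-129-2-3p. Both miR-129 arms can come from the same precursor, so they may not be independent measurements. Leaving miR-143-3p out of the table made it 2 of the 8 (25%), beside 6.41% of all miRNAs. miR-129-5p was at 117, 127 and 144 CPM in DSS_RJA, against 204, 189.9 and 198 CPM in DSS, with the groups well apart for their spread (-0.61 ± 0.19, edgeR adjusted p = 0.428). miR-129b-3p, with nearly the same counts, gave -0.61 ± 0.19. miR-129-2-3p, the opposite arm of one miR-129 precursor, was at 9.42, 15.6 and 12.5 CPM in DSS_RJA and 21.5, 18.9 and 29.1 CPM in DSS (-0.89 ± 0.29). miR-9-5p, which promotes neuronal differentiation, was at 303, 343 and 410.2 CPM in DSS_RJA and 619, 533 and 414 CPM in DSS (-0.57 ± 0.24). Its highest DSS_RJA library was close to its lowest DSS library. Over the list the median was -0.41, with 5 negative, 3 positive and 0 called.

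miR-145a-5p, which maintains the contractile state of smooth muscle, was at 6650.0, 6702 and 6528 CPM in DSS_RJA, against 9588, 8407 and 10978 CPM in DSS. The DSS_RJA libraries were within 1.03-fold of each other and all lower than the DSS libraries (-0.54 ± 0.19, edgeR adjusted p = 0.428). miR-143-3p, transcribed together with it, took 68.7%, 71.1% and 71.8% of all reads in DSS_RJA 1, 2 and 3, against 68.3%, 67.2% and 75.5% in DSS 1, 2 and 3. After TMM scaling every DSS_RJA library lay above every DSS library in miR-143-3p (0.17 ± 0.12), and with library totals only the value was 0.0037. The 6 smooth muscle miRNAs had 4 positive and 2 negative values (median 0.084, 0 called), and with library totals only 1 positive and 5 negative, median -0.088.

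**Figure D4:**
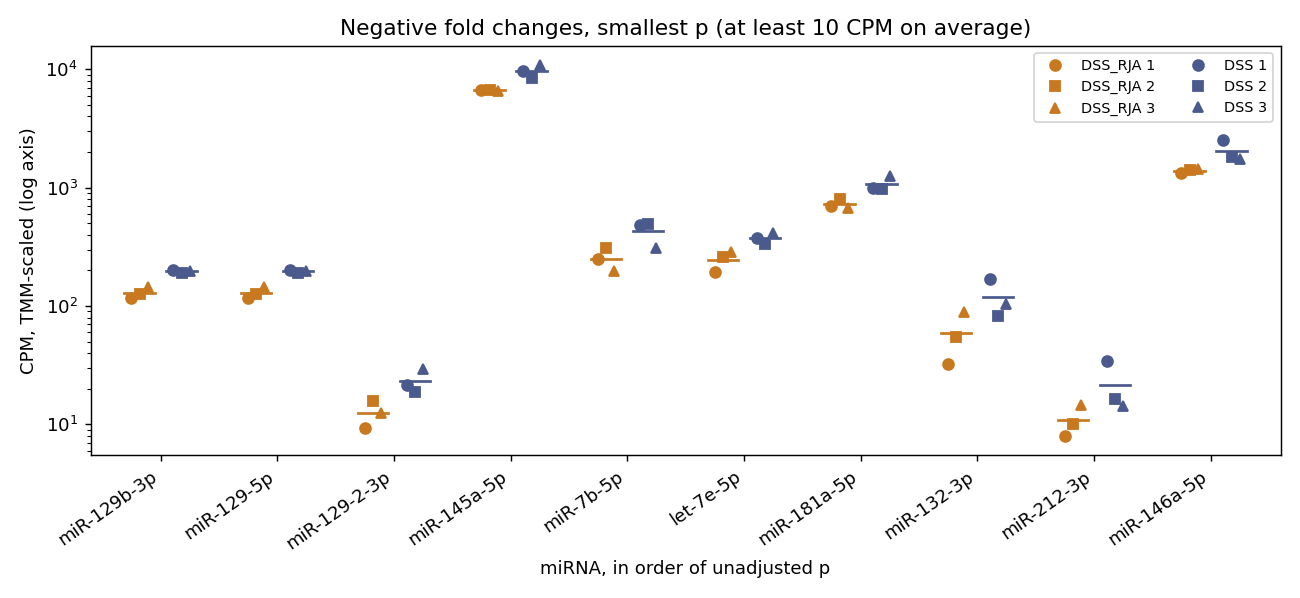
CPM (TMM-scaled, log axis) of the 10 miRNAs with negative fold changes and the smallest p among those with a mean of at least 10 CPM, with one marker per library (DSS_RJA left, DSS right of each name) and a line at the group mean. In miR-132-3p and miR-212-3p the groups overlap, and in the other 8 every DSS_RJA library lies below every DSS library.

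miRNAs that respond to inflammation were mostly lower on average in DSS_RJA, without a call. Of the 10 tested, 8 were negative, with a median of -0.60. Both arms of miR-132 and of miR-212, which come from the same cluster, are among the 10, so the members may not be independent measurements. miR-146a-5p, which NF-κB induces and which represses Traf6 and Irak1, was at 1331, 1419 and 1439 CPM in DSS_RJA, against 2538, 1827 and 1735 CPM in DSS. The DSS_RJA libraries lay close together and under all DSS libraries (-0.54 ± 0.22, edgeR adjusted p = 0.433). In every other member of the 10 the groups overlapped, also in miR-146b-5p, so the share below was 10%, beside 8.53% of all miRNAs. miR-132-3p, from a cluster driven by CREB, was at 32.6, 54.4 and 89.4 CPM in DSS_RJA and 171, 83.2 and 103 CPM in DSS (-1.02 ± 0.42). miR-212-3p, its neighbour with the same seed, was at 7.91, 10.1 and 14.7 CPM in DSS_RJA and 34.1, 16.3 and 14.3 CPM in DSS (-0.98 ± 0.41). In both DSS_RJA 1 was the lowest library and DSS 1 the highest, and the groups overlapped. miR-21a-5p, ranked 2 by abundance, was at 98204, 90432 and 138278 CPM in DSS_RJA and 126337, 116330.4 and 65623 CPM in DSS (0.085 ± 0.28), with a value that turned negative with library totals only (-0.074), without DSS_RJA 3 (-0.076) and without DSS 3 (-0.16).

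The lists of white blood cell miRNAs were lowest on average in DSS_RJA 1, the library highest in epithelial miRNAs. The 4 of the myeloid and pan-leukocyte list were all negative (median -0.59) and so were the 5 of the lymphocyte list (median -0.81), with 0 called in either. The 4 are both arms of miR-223 and of miR-142a, so they may not be independent measurements. In the lymphocyte list, miR-155-5p is also a member of the inflammation-responsive list. miR-223-3p of neutrophils was at 15.3, 23.0 and 108 CPM in DSS_RJA and 99.97, 38.7 and 115 CPM in DSS (-0.79 ± 0.74), with DSS_RJA 3 at the level of DSS 1 and DSS 3. miR-150-5p of mature lymphocytes was at 164, 1092 and 1141 CPM in DSS_RJA and 1430.3, 964 and 1977 CPM in DSS (-0.87 ± 0.64), and here DSS_RJA 1 alone was far below. Without DSS_RJA 1 the values were -0.35 for both, and without DSS_RJA 3 that of miR-223-3p was -2.09. miR-142a-5p (-0.71 ± 0.45), miR-155-5p of activated immune cells (-0.83 ± 0.51) and miR-342-3p (-0.81 ± 0.38) overlapped between the groups too. miR-181a-5p, which tunes T cell receptor signalling but is also expressed outside lymphocytes, did not overlap, at 705, 809 and 669.7 CPM in DSS_RJA and 989, 966 and 1267 CPM in DSS (-0.56 ± 0.22). Averaged over the myeloid and pan-leukocyte list, log2 CPM was 3.33, 4.16 and 5.63 in DSS_RJA 1, 2 and 3, against 5.83, 4.64 and 5.04 in DSS 1, 2 and 3. For the lymphocyte list it was 7.12, 8.22 and 8.23 in DSS_RJA, against 8.82, 8.36 and 8.85 in DSS. The part of tissue make-up in these values and in the epithelial ones was not tested.

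Of the remaining lists none had a called member. The mesenchyme list had 8 negative and 1 positive values (median -0.17), with miR-10b-5p at -0.52 ± 0.26 and miR-199b-5p at -0.46 ± 0.24. The Dlk1-Dio3 imprinted cluster had 18 negative and 16 positive values among 34 tested (median -0.093). Medians were 0.31 for skeletal muscle, -0.049 for endothelium, -0.20 for red cells, -0.067 for miR-29, -0.081 for miR-30, -0.090 for miR-15 with miR-16, 0.011 for miR-34 with miR-449, 0.25 for miR-148 with miR-152 and 0.39 for miR-378. With library totals only, 4 of 4 endothelial miRNAs were negative in place of 2 of 4. miR-30c-5p (-0.39 ± 0.21) was the miR-30 member with the smallest p, and miR-378a-3p, from an intron of the metabolic coactivator gene Ppargc1b, was at 12099, 11195 and 5293 CPM in DSS_RJA and 4334, 6868 and 7005 CPM in DSS (0.65 ± 0.35). miR-10a-5p, encoded in a Hox cluster and ranked 4 by abundance, was at 9368, 10961 and 10552 CPM in DSS_RJA and 18826, 12649.8 and 10252 CPM in DSS (-0.43 ± 0.25). DSS 1 was its highest library, and without it the value was -0.16.

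The SD of log2 CPM was larger in DSS_RJA than in DSS in 239 of the 422 miRNAs (56.6%), and its median was 0.37 in DSS_RJA and 0.36 in DSS. For the intestinal epithelium list the median SD was 1.66 in DSS_RJA and 1.10 in DSS, and for the inflammation-responsive list it was 0.80 in DSS_RJA and 0.49 in DSS. For let-7 it was 0.21 in DSS_RJA and 0.20 in DSS, and for smooth muscle 0.12 in DSS_RJA and 0.17 in DSS. Among miRNAs with a mean of at least 100 CPM, the 5 with the widest DSS_RJA libraries were miR-375-3p, miR-215-5p, miR-200a-3p, miR-194-5p and miR-192-5p, which spread 9.76-fold to 15.2-fold. The 5 narrowest were miR-145a-5p, miR-23a-3p, miR-143-3p, miR-146a-5p and miR-425-5p, from 1.03-fold to 1.08-fold. Of these, miR-23a-3p was at 1018, 1076 and 1024 CPM in DSS_RJA and 1143, 1298 and 1779.6 CPM in DSS (-0.44 ± 0.23), and miR-425-5p gave 0.29 ± 0.25. The share with the larger SD in DSS_RJA was 48.8% without DSS_RJA 1, 54.0% without DSS_RJA 2 and 38.7% without DSS_RJA 3. These shares set an SD over fewer libraries against an SD over all 3 DSS libraries. That difference moves the share by itself, so they do not show which library sets the spread.

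**Figure D5:**
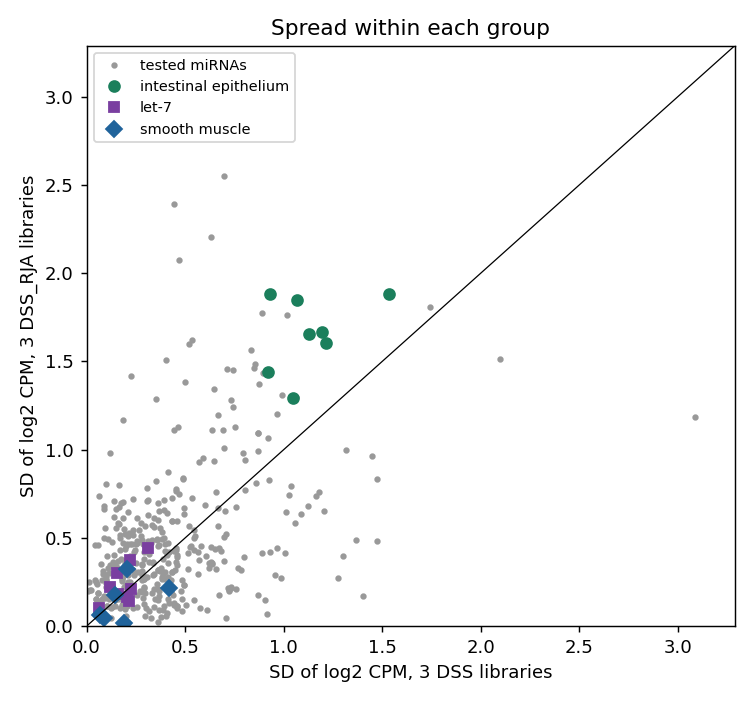
SD of log2 CPM over the 3 DSS_RJA libraries (vertical axis) against the SD over the 3 DSS libraries (horizontal axis) for each of the 422 miRNAs, with a line of equality and 3 lists in colour. The intestinal epithelium list lies far from the origin on both axes (median 1.66 in DSS_RJA and 1.10 in DSS), while let-7 and smooth muscle lie near it.

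Of the 47 miRNAs at an unadjusted p under 0.05, 42 had a sequence, with 39 different seeds. The seeds that occurred in a pair were those of miR-132-3p with miR-212-3p, miR-200b-3p with miR-429-3p, and miR-200a-5p with miR-200b-5p, and each pair had the same sign.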

How the data were processed

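The labels' protocols describe ligation of adaptors to both ends of small RNA, and size-selected inserts were sequenced as single reads. Bowtie and DESeq appear in the submitters' processing notes. The sources used here do not give the genome build, miRNA annotation, use of strand or handling of ambiguous reads. Per the file headers, the table deposited by the authors holds raw counts for each mature miRNA and TPM columns, and the TPM values were not tested.

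Groups followed the labels. Counts of the 6 libraries were fitted with edgeR 4.0.16 in R 4.3.3 (TMM scaling, quasi-likelihood test, group as the only term, 4 residual degrees of freedom, threshold 0.05 after Benjamini-Hochberg adjustment over 422 miRNAs). Library sizes were totals over all rows. Each standard error is the log2 fold change over the root of its F value. log2 CPM values use a prior count of 1. With 3 libraries against 3, an exact permutation test of one miRNA cannot go below p = 0.1. Binomial intervals cover counting error only, since PCR copies are not independent molecules. No pair of replicates agreed within sampling noise (lowest chi-square over its degrees of freedom, 275.5). Alternatives used DESeq2 1.42.0 and limma 3.58.1.

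The miRNAs, lists and rules were chosen with earlier results of these data known. The rule named the miRNAs with the 10 smallest p-values in each direction at a mean of at least 10 CPM, both arms of miR-210, miR-194-1-3p, miR-1983, the 5 most abundant, up to 4 of each list, and the 5 widest and 5 narrowest in DSS_RJA at a mean of at least 100 CPM. It gave 78, of which the text prints those its results turn on. miR-200c-5p, miR-3081-3p, miR-155-5p and miR-17-5p were added after their values were seen.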

Additional observations from a re-analysis of the deposited data

How the results depend on the processing

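The count of 0 called miRNAs in each direction held in the fits with DESeq2 size factors, library totals only, miR-143-3p left out, limma-voom, a mean of at least 10 CPM, the authors' numbered rows included, the replicate number as a block, and 1 row kept of each near-identical set (chosen after the data were seen), and in each of the 6 fits without 1 library (0 to 0 called in either direction). It was 4 higher with DESeq2, 2 higher with all 9 libraries (miR-194-1-3p and miR-200c-5p), 1 higher with the epithelial covariate, and 30 higher and 2 lower without a filter. In the unfiltered fit the prior degrees of freedom were infinite. The cause of these differences in calls, also of those without a filter, was not tested. The share of miRNAs with the larger SD in DSS_RJA was 38.7% to 69.2% when 1 library was left out. The groups then differed in their number of libraries, which moves this share by itself. With the epithelial covariate the log2 fold changes of miR-192-5p (-0.11), miR-194-5p (-0.068), miR-375-3p (-1.08) and miR-200a-3p (-1.02) turned negative. Of these, miR-192-5p, miR-194-5p and miR-200a-3p are themselves averaged in the covariate, so their change of sign is partly built in. That of miR-21a-5p was -0.074 with library totals only and -0.16 to 0.26 without 1 library, that of miR-200a-3p -0.066 to 1.41 and that of miR-148a-3p -0.0056 to 0.83. For the 51 miRNAs printed, 9 alternative values turned sign, 23 gained a call and the other 877 kept both.

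Pairing of the libraries by replicate number was not apparent. Correlations of deviations from the group mean between same-numbered libraries were -0.41, 0.19 and -0.059. Of the 6 libraries only DSS_RJA 2 correlated best with its own number. Deviations within a group of 3 sum to 0, so these correlations cannot decide whether libraries share a batch by number. The replicate block gave 0 higher and 0 lower. Depth limits the scarce arms: miR-143-3p took 67.2% to 75.5% of the reads, and 245 of the 422 miRNAs reached a mean of 10 CPM.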

Other observations

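Both precursors of miR-194 give the same 5p arm but distinct 3p arms, so the share of miR-194-1-3p among the reads of both 3p arms compares these mature arms within each library, without any scaling. The share was 32.0%, 25.9% and 27.5% in DSS_RJA 1, 2 and 3 (133 of 416, 145 of 559 and 44 of 160 reads), against 6.67%, 6.83% and 12.3% in DSS 1, 2 and 3 (2 of 30, 14 of 205 and 13 of 106 reads). The exact 95% binomial intervals were 27.5% to 36.7%, 22.4% to 29.8% and 20.7% to 35.1% in DSS_RJA, and 0.818% to 22.1%, 3.78% to 11.2% and 6.69% to 20.1% in DSS. They cover counting error only, and DSS 1 with its 30 reads meets DSS_RJA 3. The mean was 28.5% ± 3.13 in DSS_RJA and 8.59% ± 3.19 in DSS (SD, n = 3 each), a difference of 19.9 percentage points with an exact two-sided permutation p of 0.1, the smallest that 3 against 3 can give. The 3 Control libraries, outside the comparison, had 32.0%, 32.2% and 33.7%. DSS_RJA 3, which lay among the DSS libraries in its epithelial level, lay with DSS_RJA 1 and DSS_RJA 2 in this share. The measure was chosen after the values were seen.

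Of the rows that the authors numbered themselves, 1 passed the same read filter. It had 2.00, 5.19 and 5.84 CPM, unscaled, in DSS_RJA and 6.96, 5.58 and 3.44 in DSS, without separation of the groups.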
